A study of Mus musculus with 12 samples.

Results

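The 9 genes described here encode P-selectin glycoprotein ligand 1 (Selplg), the hyaluronan receptor CD44 (Cd44) and 7 Golgi enzymes that build the sugars recognised by selectins: Fut7, Fut4, Gcnt1, St3gal1, St3gal4, St3gal6 and B4galt1. They were taken by gene symbol from a comparison of 24421 genes in CD8 T cells, and all 9 were found. The series concerns linker histone H1, a protein that binds nucleosomes and helps to compact chromatin. Its labels describe 12 samples in 6 groups, made of splenic B, CD4 T and CD8 T cells of C57BL/6 mice that were wild type (WT) or carried the genotype named cTKO. The only comparison analysed here is cTKO against WT in CD8 T cells, with 2 animals per genotype, 1 female and 1 male in each. For each sample 500000 cells were sorted by flow cytometry, and paired-end libraries were made from polyadenylated RNA. The labels give neither the age of the mice nor the promoter that drives the deletion in cTKO animals. The B cell and CD4 T cell samples were not analysed here.

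Selectins are lectins on endothelium, platelets and leukocytes that let a T cell tether and roll on a vessel wall. P-selectin and E-selectin bind a sugar cap, sialyl Lewis x, best when it sits on a branched core 2 O-glycan of PSGL-1 or on glycoforms of CD43 and CD44. Gcnt1 opens the core 2 branch, B4galt1 and N-acetylglucosaminyltransferases extend it as lactosamine, St3gal4 and St3gal6 add sialic acid to it, and Fut7 and Fut4 add fucose. St3gal1 instead sialylates the unbranched core 1 and competes with Gcnt1 for it. Naive CD8 T cells carry mostly core 1 structures and little CD44, while activated and memory CD8 T cells carry core 2 structures and much CD44.

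Expression is given as reads of each library, divided by that library's size factor to give normalized counts. The fold changes, standard errors (SE) and adjusted p-values are those of the authors' deposited table, made with DESeq2, and a gene is called at an adjusted p under 0.05. That table holds no values of single samples, so the reads of each library were reconstructed as whole numbers from its means and fold changes. This succeeded for 17867 of the 17926 genes with a mean between 0 and 9000, including 8 of the 9 genes, and not for Selplg, whose mean is higher. The libraries are named by size as the larger and the smaller of each genotype, and their size factors were 1.21 and 0.866 (WT) and 1.21 and 0.805 (cTKO). Solved reads came to 14641062 and 9871750 in WT and to 13167944 and 9013080 in cTKO. Which of them came from the female animal was not determined here. Values of 4 reads are listed in the order larger WT, smaller WT, larger cTKO, smaller cTKO.

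The header does not say which genotype is the numerator of the fold change, and it was read as cTKO over WT from the H1 genes. Hist1h1c had 41, 56, 0 and 0 reads, Hist1h1e 64, 112, 0 and 0, and Hist1h1d 5, 11, 0 and 0. An inverted reading would turn every direction below. The larger cTKO library stood apart from the rest in its weakly expressed genes: 1165 genes had a single read there and none elsewhere, against 97 to 156 such genes in the other libraries. Markers of the sorted cell were abundant, with mean normalized counts of 20303 for Cd8a and 31813 for Cd8b1. Of 5 such markers, 0 were called by the deposited DESeq2 test (1 of 5, Cd3g, at an unadjusted p under 0.05). The calls of this and the following marker lists stand beside 13.4% of all genes tested, 9.77% higher and 3.61% lower. The summed normalized counts of 6 natural killer (NK) cell markers were 425 to 469 in WT and 2164 to 2992 in cTKO, with Klrb1c, Klra8, Tyrobp and Klre1 called higher and Fcer1g lower. Ncr1, a defining NK receptor, had 2, 4, 22 and 1 reads. The sum of 6 myeloid markers was 47.8 to 52.0 in WT and 186 to 451 in cTKO, with 1 of 5 tested called higher (Itgam), and S100a8 was read in 1 library only, the larger cTKO library (22 reads). Itgam made up most of that sum, with normalized counts of 28.0, 34.6, 359 and 171 in the same order of libraries. Lyz2 had 20, 11, 43 and 6 reads, Csf1r 2, 3, 25 and 6, and Cd14 2, 1, 1 and 0. The sum of 6 B cell markers was 1121 to 1545 in WT and 268 to 938 in cTKO, with Cd79b called lower and Pax5 at 0 in all but 1 library. CD4 T cell markers summed to 90.6 to 91.2 in WT and 73.3 to 149 in cTKO, and platelet and erythroid markers to 11.5 to 45.0 and 8.70 to 41.4. Of 3 CD4 T cell markers tested, Zbtb7b alone was called, as higher, with 15, 11, 110 and 34 reads. Its log2 fold change was 2.42 (SE 0.76, DESeq2 adjusted p = 0.0158) in the authors' deposited table. Cd4 itself had 1, 4, 1 and 0 reads and was not tested. The part of these cells in the results below was not tested, and in bulk RNA fewer cells of a type cannot be told apart from less RNA per cell.

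Of the 9 genes, 3 rose in cTKO cells by the authors' deposited DESeq2 test: Cd44, Gcnt1 and St3gal6. None of the 9 fell, and the other 6 (Selplg, Fut7, Fut4, St3gal1, St3gal4 and B4galt1) were not called. Among all 12972 genes tested, 13.4% were called, 9.77% as higher and 3.61% as lower. The median log2 fold change of the 9 in the authors' deposited table was 0.85, beside 0.04 over all genes tested, and 7 of the 9 were positive. Of the 8 genes with solved reads, 6 had the cTKO libraries both above the WT libraries, 1 (St3gal1) had both below, and Fut4 overlapped. For all tested genes with solved reads these shares were 31.5% above and 28.1% below. At an unadjusted p under 0.05 the deposited DESeq2 test gave 5 of the 9, adding St3gal4 and B4galt1, and 0 of the 5 were lower.

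**Figure D1:**
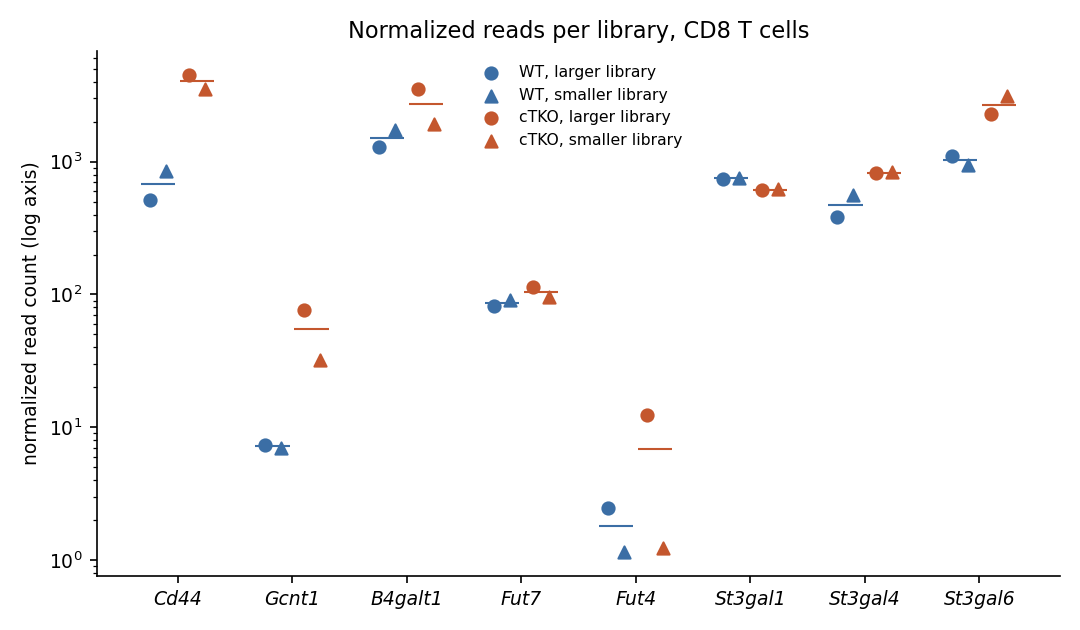
Normalized read counts (log axis) of the 8 genes with solved reads in the 4 CD8 T cell libraries; circles are the larger and triangles the smaller library of each genotype, and lines are means of 2. For Cd44 the cTKO libraries lie at 4525 and 3517 and the WT libraries at 519 and 846, while the Fut4 groups overlap.

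Levels per kilobase of annotated exon differed widely among the 9 genes in WT cells. Selplg stood first at 11953 normalized counts per kilobase, followed by B4galt1 at 356, St3gal6 at 166, St3gal4 at 161, St3gal1 at 110 and Cd44 at 101. Fut7 followed at 36.9, Gcnt1 at 1.24 and Fut4 at 0.445. St3gal6 and St3gal4 differed there by less than the spread between animals, as did St3gal1 and Cd44. In cTKO cells Cd44 ranked next after B4galt1, at 593 per kilobase, and its distance to B4galt1 (642) was within the spread. St3gal6 followed at 436, St3gal4 at 283, St3gal1 at 89.4, Fut7 at 44.6, Gcnt1 at 9.49 and Fut4 at 1.68, below Selplg at 8837. Selplg was the most abundant and Gcnt1 and Fut4 the scarcest of the 9 in both genotypes.

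Selplg (Entrez 20345, chr5:113817798-113832528, minus strand, GRCm38) encodes PSGL-1, the main protein scaffold of P-selectin ligand on T cells. Its mean normalized count of 44407 lay at the 99.9th percentile of all genes with reads. The mean and the deposited fold change give 51065 normalized counts in WT and 37750 in cTKO, as group values without a spread between libraries. Its log2 fold change of -0.44 (SE 0.30) was not called in the authors' deposited DESeq2 table (adjusted p = 0.368). The scaffold was thus among the most abundant transcripts in both genotypes, and a difference of this size was not resolved with 2 animals per group.

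Cd44 (Entrez 12505, chr2:102811141-102901669, minus strand, GRCm38) binds hyaluronan and, in suitable glycoforms, E-selectin, and is a standard surface marker of activated and memory T cells. It had 630, 733, 5464 and 2831 reads, or 519, 846, 4525 and 3517 normalized counts. Either cTKO library exceeded the WT libraries several times over. The mean was 683 ± 232 in WT and 4021 ± 713 in cTKO (SD, n = 2). Cd44 rose 5.90-fold, a log2 fold change of 2.56 (SE 0.34, DESeq2 adjusted p = 8.89e-12) in the authors' deposited table. With limma on the recovered reads the adjusted p was 0.00111, and it stayed called without the larger or the smaller WT library (0.0141 and 0.00272). Without the larger or the smaller cTKO library the limma adjusted p was 0.230 or 0.102, so the call ended, at log2 fold changes of 2.41 and 2.77. The summed NK markers and the myeloid sum given above, most of it Itgam, were higher in the same libraries. The part of such cells in the Cd44 level was not tested. The 250 bases before the start site are shown because Cd44 carried the smallest adjusted p of the 9. Capitals mark CpG dinucleotides, of which there are 5, and the sequence is that of RefSeq on GRCm38.p6, minus strand, chr2:102901666-102901915.
Cd44: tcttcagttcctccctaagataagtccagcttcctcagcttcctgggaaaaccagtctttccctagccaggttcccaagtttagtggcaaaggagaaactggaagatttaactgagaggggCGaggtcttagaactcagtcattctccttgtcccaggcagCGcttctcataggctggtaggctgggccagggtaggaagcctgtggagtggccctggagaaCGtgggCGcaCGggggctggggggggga

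The other tested scaffolds of selectin ligands were not called. Spn encodes CD43, which carries core 2 O-glycans on activated T cells, and had 1748, 1511, 3685 and 1224 reads. The cTKO libraries lay on either side of the WT libraries, and the log2 fold change of 0.52 (SE 0.37) had a DESeq2 adjusted p of 0.379 in the authors' deposited table. Glg1, the E-selectin ligand ESL-1, had 2913, 2114, 3406 and 1799 reads and a log2 fold change of 0.06 (SE 0.30) in the same deposited table. Cd44 reads per Spn read were 0.360 and 0.485 in WT and 1.48 and 2.31 in cTKO. Of 11 scaffold genes listed, 6 were tested, and Cd44 alone was called, beside 9.77% called higher among all genes tested. The median log2 fold change of the 6 was 0.29. Cd34, Glycam1 and Podxl2, scaffolds known mainly from endothelium and other cells, had at most 4 reads in any library.

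**Figure D2:**
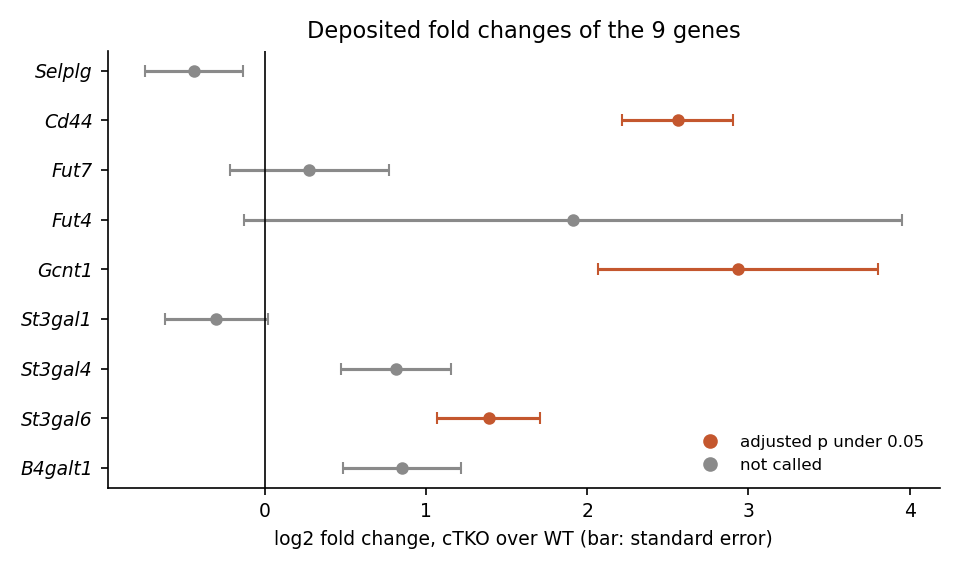
Deposited log2 fold changes, cTKO over WT, of the 9 genes, with standard errors as bars and genes at an adjusted p under 0.05 in orange. Gcnt1, Cd44 and St3gal6 lie at 2.94, 2.56 and 1.39, and the bar of Fut4 (SE 2.04) is the widest.

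Gcnt1 (Entrez 14537, chr19:17326141-17372844, minus strand, GRCm38) encodes the core 2 N-acetylglucosaminyltransferase, which opens the O-glycan branch that carries P-selectin ligand. It was scarce in WT, with 9 and 6 reads, and had 93 and 26 reads in cTKO. Normalized counts were 7.41 and 6.93 in WT and 77.0 and 32.3 in cTKO. The groups did not overlap, and the larger cTKO library held 2.38 times the normalized count of the smaller. The mean was 7.17 ± 0.341 in WT and 54.7 ± 31.6 in cTKO (SD, n = 2). In the authors' deposited table Gcnt1 rose 7.65-fold, a log2 fold change of 2.94 (SE 0.87, DESeq2 adjusted p = 0.00912). With limma the adjusted p was 0.0213. It ran from 0.0760 without the larger WT library to 0.207 without the larger cTKO library, so leaving out any 1 of the 4 libraries ended the call, at log2 fold changes of 2.03 to 3.26.

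The enzymes on either side of Gcnt1 in the pathway were not called. C1galt1, which makes the core 1 structure that Gcnt1 branches, had 255, 247, 284 and 194 reads and a log2 fold change of -0.05 (SE 0.39, DESeq2 adjusted p = 0.951) in the authors' deposited table. St3gal1, which caps core 1 with sialic acid, is described with its family below. Within each library Gcnt1 had 0.0353 and 0.0243 reads per C1galt1 read in WT and 0.328 and 0.134 in cTKO. Against St3gal1 the ratios were 0.00992 and 0.00912 in WT and 0.127 and 0.0523 in cTKO. These ratios are free of the size factors, and both cTKO values exceeded both WT values in each case. With 2 libraries per group the smallest two-sided p an exact permutation test can give is 0.333, so the ratios were not tested.

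Among 12 tested enzymes that start O-glycans or build their cores, Gcnt1 rose and Galnt6 and Galnt12 fell, and the median log2 fold change was -0.15. Over all genes tested, 9.77% were called higher and 3.61% lower. Galnt6 and Galnt12 encode polypeptide N-acetylgalactosaminyltransferases, which attach the first sugar to serine or threonine. Galnt6 had 7304, 4700, 3522 and 2173 reads and a log2 fold change of -1.03 (SE 0.29, DESeq2 adjusted p = 0.00538) in the authors' deposited table. Galnt12 had 2195, 1303, 813 and 622 reads and a log2 fold change of -1.20 (SE 0.31, DESeq2 adjusted p = 0.00219) there. By limma the calls of Galnt6 and Galnt12 ended without any 1 of the 4 libraries. The log2 fold changes then ran from -0.95 to -1.10 for Galnt6 and from -1.06 to -1.32 for Galnt12. Both fell while other family members did not pass the test, such as Galnt10 with 4915, 3159, 5981 and 3228 reads. Galnt1 had 4385, 2781, 2073 and 1879 reads and a DESeq2 adjusted p of 0.0875 in the authors' deposited table. Gcnt3 and Gcnt4, the other core 2 enzymes, had at most 6 reads in any library and were not tested.

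RefSeq places several start sites in Gcnt1, and the 250 bases before the first of them and before the most CpG-rich are shown because the gene rose from few reads. Capitals again mark CpG dinucleotides, on the minus strand of GRCm38.p6 at chr19:17372845-17373094 (2 CpG) and chr19:17356668-17356917 (10 CpG).
Gcnt1 first start: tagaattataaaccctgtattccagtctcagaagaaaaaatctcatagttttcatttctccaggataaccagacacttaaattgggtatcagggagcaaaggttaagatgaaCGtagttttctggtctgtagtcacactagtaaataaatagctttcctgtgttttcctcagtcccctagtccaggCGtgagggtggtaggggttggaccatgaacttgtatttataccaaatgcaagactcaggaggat
Gcnt1 inner start: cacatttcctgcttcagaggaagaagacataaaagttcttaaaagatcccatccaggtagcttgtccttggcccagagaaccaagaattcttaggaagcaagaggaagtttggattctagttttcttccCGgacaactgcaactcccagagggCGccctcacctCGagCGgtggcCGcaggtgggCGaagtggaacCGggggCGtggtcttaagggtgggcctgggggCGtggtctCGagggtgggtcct

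B4galt1 (Entrez 14595, chr4:40804602-40853984, minus strand, GRCm38) encodes the galactosyltransferase that completes lactosamine units. It had 1561, 1497, 4257 and 1538 reads, or 1285, 1729, 3526 and 1911 normalized counts. The groups did not overlap, but the smaller cTKO library exceeded the smaller WT library only slightly, and the larger cTKO library held 1.85 times the smaller. The mean was 1507 ± 313 in WT and 2718 ± 1142 in cTKO (SD, n = 2). Its log2 fold change of 0.85 (SE 0.36) was not called in the authors' deposited DESeq2 table (unadjusted p = 0.0190, adjusted p = 0.101). Mir5123 lies within the B4galt1 gene and had 4, 0, 41 and 2 reads, the most in the same larger cTKO library.

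Among 11 tested genes of lactosamine extension, 3 rose and 0 fell by the authors' deposited DESeq2 test, with a median log2 fold change of 0.49, beside 9.77% higher and 3.61% lower among all genes tested. All 3 were scarce in WT, with WT means of 3.79 (Gcnt2), 2.72 (B3gnt8) and 10.4 (B3gnt7). Their means over all 4 libraries lay between 10 and 50, a range in which 19.1% of all tested genes were called higher. Gcnt2, the I-branching enzyme, had 5, 3, 127 and 51 reads and a log2 fold change of 4.47 (SE 0.84, DESeq2 adjusted p = 4.21e-06) in the authors' deposited table. B3gnt8, which extends poly-lactosamine chains, had 1, 4, 50 and 21 reads and a log2 fold change of 3.72 (SE 1.17, DESeq2 adjusted p = 0.0165) there. B3gnt7, a related extension enzyme, had 14, 8, 52 and 48 reads and a log2 fold change of 2.30 (SE 0.80, DESeq2 adjusted p = 0.0361) in the same deposited table. By limma the call of B3gnt8 ended without the larger WT library (log2 fold change 2.59), and those of all 3 without either cTKO library (Gcnt2 3.75 and B3gnt8 3.08 without the larger). B3gnt7 also lost its call without either WT library. It stood at an adjusted p of 0.0505 when all 18153 genes with reads entered the adjustment. The abundant extension enzyme B3gnt2 had 4231, 2539, 2524 and 1628 reads and was not called (DESeq2 adjusted p = 0.137 in the authors' deposited table). B4galt3 and B4galt5, relatives of B4galt1, had 966, 545, 553 and 393 reads and 389, 264, 639 and 282 reads, and neither was called.

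**Figure D3:**
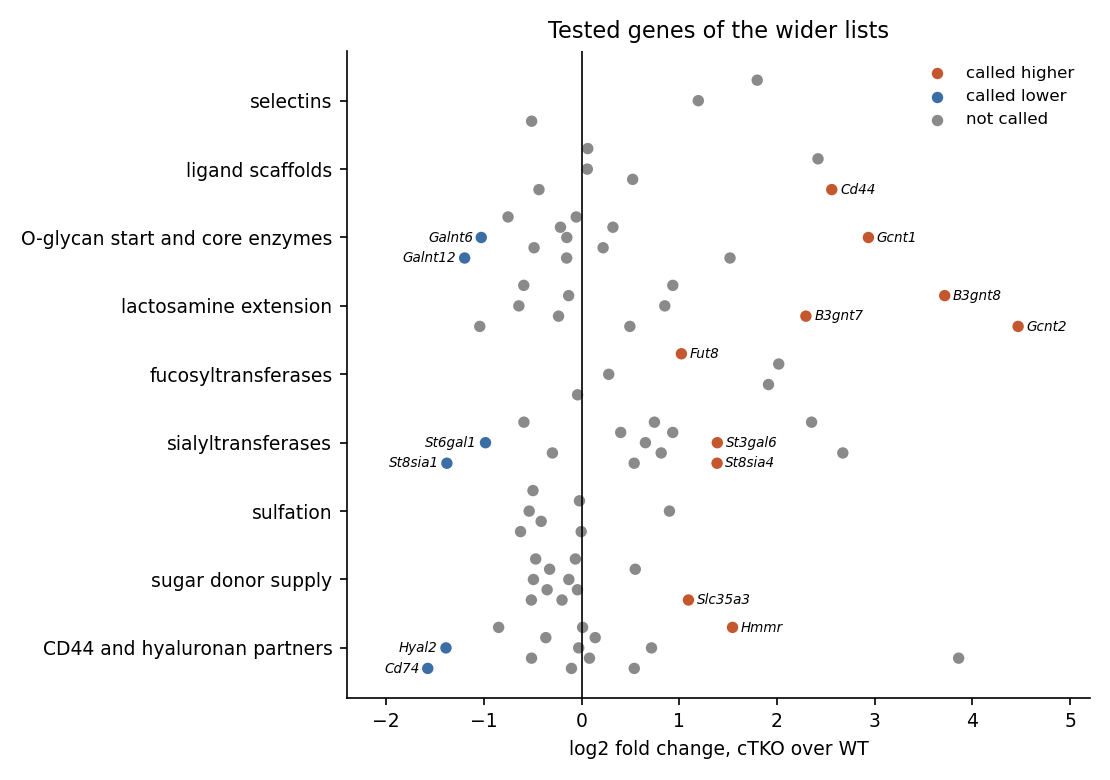
Deposited log2 fold changes, cTKO over WT, of the 83 tested genes in 9 lists of the selectin ligand and CD44 pathways, with called genes named; vertical offsets within a list only separate the points. The 10 genes called higher lie between 1.02 (Fut8) and 4.47 (Gcnt2), and the 6 called lower between -0.98 (St6gal1) and -1.57 (Cd74).

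Fut7 (Entrez 14347, chr2:25422351-25426374, plus strand, GRCm38) encodes the fucosyltransferase that completes sialyl Lewis x on leukocytes. It had 100, 79, 138 and 77 reads, or 82.3, 91.2, 114 and 95.7 normalized counts. The cTKO libraries lay just above the WT libraries, with means of 105 ± 13.2 and 86.8 ± 6.28 (SD, n = 2). The log2 fold change of 0.28 (SE 0.49) was not called in the authors' deposited DESeq2 table (adjusted p = 0.768). A difference between genotypes was not detectable at this depth and number of animals.

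Fut4 (Entrez 14345, chr9:14748459-14752122, minus strand, GRCm38) encodes another leukocyte fucosyltransferase and was barely expressed. It had 3, 1, 15 and 1 reads, or 2.47, 1.15, 12.4 and 1.24 normalized counts. The groups overlapped, and nearly all cTKO reads came from the larger library, the library in which weakly expressed genes stood apart. Fut4 showed a log2 fold change of 1.91 with an SE of 2.04 in the authors' deposited table (DESeq2 adjusted p = 0.593). Without the larger cTKO library the limma value was -0.29.

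Of 5 tested fucosyltransferases, Fut8 alone was called, as higher, beside 9.77% called higher among all genes tested. The median log2 fold change of the 5 was 1.02. Fut8 adds the core fucose of N-glycans, a sugar that is no part of the selectin ligand. It had 793, 511, 1741 and 870 reads and a log2 fold change of 1.02 (SE 0.32, DESeq2 adjusted p = 0.0176) in the authors' deposited table. With limma its adjusted p was 0.0609. Fut7 reads per Fut8 read were 0.126 and 0.155 in WT and 0.0793 and 0.0885 in cTKO. Fut11 had 987, 648, 968 and 576 reads and a log2 fold change of -0.04 (SE 0.32) in the authors' deposited table.

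St3gal1 (Entrez 20442, chr15:67102875-67176946, minus strand, GRCm38) had 907, 658, 734 and 497 reads, or 747, 760, 608 and 617 normalized counts. Either cTKO library was lower than the WT libraries, with means of 753 ± 9.15 in WT and 613 ± 6.71 in cTKO (SD, n = 2). Its log2 fold change of -0.30 (SE 0.32) was not called by the authors' deposited DESeq2 test (adjusted p = 0.592), whose SE is of the size of the fold change itself. 

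St3gal4 (Entrez 20443, chr9:35046576-35116864, minus strand, GRCm38), a sialyltransferase of lactosamine, had 467, 482, 993 and 669 reads. Normalized counts were 385 and 557 in WT and 822 and 831 in cTKO, so the groups did not overlap. The mean was 471 ± 122 in WT and 827 ± 6.12 in cTKO (SD, n = 2), a 1.76-fold difference. The log2 fold change of 0.81 (SE 0.34) was not called in the authors' deposited DESeq2 table (unadjusted p = 0.0172, adjusted p = 0.0946).

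St3gal6 (Entrez 54613, chr16:58469742-58524260, minus strand, GRCm38), the sialyltransferase that acts with St3gal4 in making selectin ligands, had 1347, 818, 2742 and 2504 reads. Normalized counts were 1109 and 945 in WT and 2271 and 3111 in cTKO. The groups did not overlap, and here the smaller cTKO library was the highest. The mean was 1027 ± 116 in WT and 2691 ± 594 in cTKO (SD, n = 2). St3gal6 rose 2.62-fold, a log2 fold change of 1.39 (SE 0.32, DESeq2 adjusted p = 0.000299) in the authors' deposited table. With limma the adjusted p was 0.0154, and it ran from 0.102 without the smaller cTKO library to 0.198 without the smaller WT library, so the call ended without any 1 of the 4 libraries, at log2 fold changes of 1.15 to 1.60.

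Of the 14 sialyltransferases tested, 2 rose and 2 fell by the authors' deposited DESeq2 test, with a median log2 fold change of 0.70. Over all genes tested, 9.77% were called higher and 3.61% lower, and both shares here were larger, on 2 genes each. Beside St3gal6, St8sia4 rose, a polysialyltransferase, with 683, 512, 2508 and 754 reads and a log2 fold change of 1.39 (SE 0.39, DESeq2 adjusted p = 0.00579) in the authors' deposited table. Its limma adjusted p was 0.0662, and without the larger cTKO library the limma log2 fold change was 0.70. St6gal1, which adds sialic acid in the other linkage, alpha2,6, to lactosamine, had 1849, 1956, 1041 and 846 reads and fell by 0.98 on the log2 scale (SE 0.33, DESeq2 adjusted p = 0.0285) in the authors' deposited table. Its adjusted p was 0.0550 after all fold changes were re-centred by the median of abundant genes, and 0.0793 with limma. St8sia1, the GD3 ganglioside synthase, had 620, 345, 240 and 121 reads and fell by 1.38 on the log2 scale (SE 0.38, DESeq2 adjusted p = 0.00418) in the same deposited table. By limma the St8sia1 call ended without any 1 of the 4 libraries, at log2 fold changes of -1.178 to -1.579.

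Ratios within a library compare these enzymes without the size factors. St3gal6 reads per St3gal1 read were 1.49 and 1.24 in WT and 3.74 and 5.04 in cTKO. St3gal6 reads per St6gal1 read were 0.729 and 0.418 in WT and 2.63 and 2.96 in cTKO. Against St3gal4 the cTKO ratios of 2.76 and 3.74 overlapped the WT ratios of 2.88 and 1.70. Of all St3gal family reads, per exon length, St3gal6 made up 37.8% and 29.5% in WT and 45.2% and 53.9% in cTKO. St3gal1 made up 22.9% and 21.4% in WT and 10.9% and 9.64% in cTKO. Shares of a common total fall when another member gains, and St3gal1 itself was not called. The St3gal4 share was 27.6% and 36.7% in WT and 34.6% and 30.4% in cTKO and overlapped. St3gal3 held up to 10.3% in WT and 3.49% and 3.46% in cTKO, and St3gal2 and St3gal5 held at most 3.98%.

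**Figure D4:**
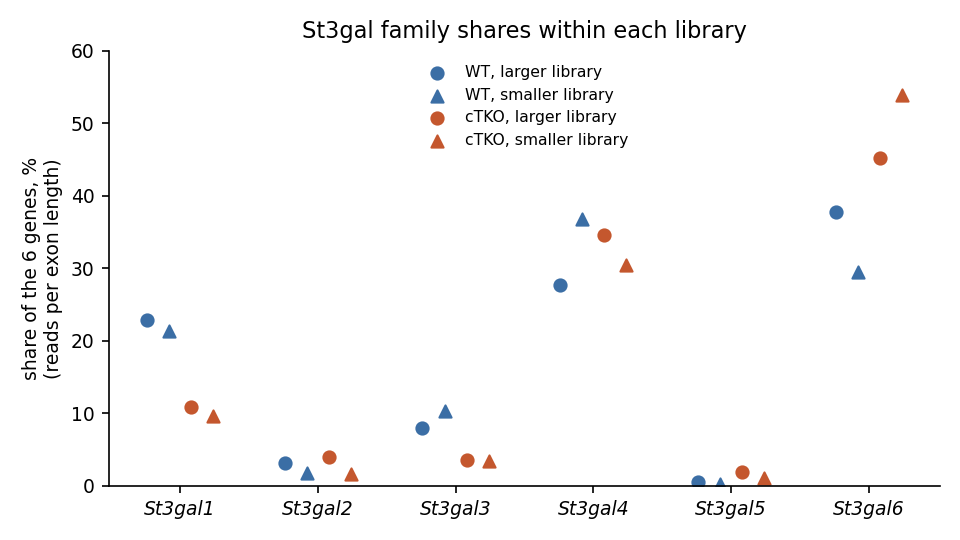
Share of each gene in the reads per exon length of the 6 St3gal genes, in percent, within each of the 4 libraries (circles larger, triangles smaller). The St3gal6 shares are higher in cTKO (45.2% and 53.9%) and the St3gal1 shares lower (10.9% and 9.64%), as shares of a common total, while the St3gal4 shares overlap.

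The starts of St3gal6 and St3gal4 are shown next to each other because the enzymes share a role while St3gal6 alone was called. St3gal6 has an outer start on GRCm38.p6 at chr16:58524254-58524503 with 1 CpG in 250 bases and an inner start at chr16:58523427-58523676 with 16. St3gal4 has 25 at chr9:35116865-35117114. All are on the minus strand, from RefSeq, with CpG in capitals.
St3gal6 outer start: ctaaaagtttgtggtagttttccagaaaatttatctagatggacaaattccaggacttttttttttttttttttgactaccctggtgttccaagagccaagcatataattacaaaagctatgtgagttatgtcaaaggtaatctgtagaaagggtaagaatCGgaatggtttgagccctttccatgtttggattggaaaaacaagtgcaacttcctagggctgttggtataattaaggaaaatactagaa
St3gal6 inner start: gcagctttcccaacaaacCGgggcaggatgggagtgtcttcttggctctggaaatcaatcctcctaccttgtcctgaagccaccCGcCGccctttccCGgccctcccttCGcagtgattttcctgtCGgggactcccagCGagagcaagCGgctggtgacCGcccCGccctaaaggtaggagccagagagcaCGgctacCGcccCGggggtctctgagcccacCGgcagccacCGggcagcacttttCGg
St3gal4: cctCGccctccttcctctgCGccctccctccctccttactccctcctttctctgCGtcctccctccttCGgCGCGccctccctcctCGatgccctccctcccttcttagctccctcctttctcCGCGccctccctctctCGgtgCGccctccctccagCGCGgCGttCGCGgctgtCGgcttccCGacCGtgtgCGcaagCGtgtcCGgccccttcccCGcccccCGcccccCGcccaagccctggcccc

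Selp, Sele and the sulfation enzymes were not called. Selp and Sele, known from platelets and endothelium, had 11, 9, 38 and 29 reads and 25, 21, 81 and 28 reads. Neither was called by the deposited DESeq2 test, with Selp alone at an unadjusted p under 0.05. Tpst1 and Tpst2 sulfate the tyrosines of PSGL-1 that P-selectin contacts. Tpst1 had 266, 163, 180 and 106 reads and Tpst2 had 10893, 6368, 6002 and 5309, with log2 fold changes of -0.54 (SE 0.42) and -0.50 (SE 0.31) and DESeq2 adjusted p of 0.428 and 0.298 in the authors' deposited table. Of 7 tested sulfation genes 0 were called by the deposited DESeq2 test or by limma (1, Slc35b3, at an unadjusted p under 0.05), and the median log2 fold change was -0.41. The deposited DESeq2 test called 13.4% of all genes tested.

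Of 11 tested genes that supply sugar donors, Slc35a3 alone was called, as higher, beside 9.77% called higher among all genes tested. The median log2 fold change of the 11 was -0.20. Slc35a3 encodes a Golgi carrier of UDP-N-acetylglucosamine, the donor that Gcnt1 and the B3gnt enzymes use. It had 434, 278, 1120 and 418 reads and a log2 fold change of 1.09 (SE 0.38, DESeq2 adjusted p = 0.0337) in the authors' deposited table, with a limma adjusted p of 0.0968. The carrier of GDP-fucose, Slc35c1, had 3184, 2031, 2852 and 1579 reads, and the carrier of CMP-sialic acid, Slc35a1, had 822, 504, 622 and 512. Neither was called.

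Around CD44, 14 tested genes of hyaluronan turnover, CD44 shedding and CD44 signalling gave 1 higher and 2 lower calls, with a median log2 fold change of -0.01. Over all genes tested, 9.77% were called higher and 3.61% lower. Hyal2, a hyaluronidase, had 548, 273, 132 and 149 reads and fell by 1.39 on the log2 scale (SE 0.42, DESeq2 adjusted p = 0.0120) in the authors' deposited table. Its adjusted p was 0.0534 with limma at a pseudocount of 0.5. Cd74, the invariant chain and a partner of CD44 in binding the cytokine MIF, had 502, 479, 252 and 92 reads and fell by 1.57 (SE 0.41, DESeq2 adjusted p = 0.00237) on the log2 scale of that deposited table. By limma the Cd74 call ended without any 1 of the 4 libraries, at log2 fold changes of -1.192 to -2.055. Cd74 is also abundant in B cells, whose summed markers were 1121 to 1545 in WT and 268 to 938 in cTKO, and their part in this result was not tested. Hmmr, a hyaluronan receptor that is also a spindle protein of dividing cells, had 156, 48, 487 and 108 reads and a log2 fold change of 1.54 (SE 0.57, DESeq2 adjusted p = 0.0486) in the authors' deposited table. Its adjusted p was 0.0680 with all genes with reads in the adjustment and 0.141 with limma, where the log2 fold change was 1.45. By limma that value was 0.66 without the larger cTKO, 0.85 without the smaller WT, 2.05 without the larger WT and 2.24 without the smaller cTKO library. The sheddase genes Adam10 and Adam17 had 4047, 2453, 4346 and 1965 reads and 2562, 1535, 2671 and 1367 reads, with no call.

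Across all 106 listed genes of these pathways, the 9 included, 83 were tested, 10 rose, 6 fell and 67 were not called by the authors' deposited DESeq2 test. Their median log2 fold change was -0.00, and without the 9 genes 7 of 74 were higher and 6 lower with a median of -0.03. The share of higher calls among all genes tested was 9.77% and that of lower calls 3.61%. With limma 7 were higher and 5 lower of 79 fitted, beside 988 higher and 261 lower among all 12686 genes fitted. Without the larger cTKO library limma called 0 of the 79 (19 at an unadjusted p under 0.05) and 176 higher and 1 lower among all genes, and without the smaller cTKO library it also called 0 of the 79 (33 at an unadjusted p under 0.05). The level of a gene goes with its fold change in this comparison. Of tested genes with a mean of 10 to 50, as for Gcnt1, 19.1% were called higher and the median log2 fold change was 0.86. From 50 to 500, as for Fut7, these were 13.4% and 0.15. From 500 to 5000, the range of Cd44, B4galt1, St3gal1, St3gal4 and St3gal6, they were 6.34% and -0.16. From 5000 up, as for Selplg, they were 5.96% and -0.28.

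Genes next to the 9 were read in the same table, taking each gene with reads within 100000 bases. Of all genes tested 13.4% were called. The only neighbour of Cd44, Slc1a2, lay 20357 bases away and had 0, 0, 7 and 0 reads. Gcnt1 had Rfk with 2347, 1470, 1678 and 1353 reads and Pcsk5 with 0, 0, 13 and 3, neither called. The gene next to St3gal6, Dcbld2, overlaps its last 4 bases on the opposite strand and had 36, 14, 251 and 114 reads. Dcbld2 rose by a log2 fold change of 2.92 (SE 0.55, DESeq2 adjusted p = 5.3e-06) in the authors' deposited table. How strand was handled in counting is not given in the sources used here, so reads of the shared end cannot be told apart.

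Fut7, itself not called, lies in the most crowded stretch, with 15 neighbours of which 3 were higher, 9 not called and 3 not tested, beside 9.77% called higher among all genes tested. Abca2, a lipid transporter gene 2225 bases away, had 617, 512, 4319 and 860 reads and a log2 fold change of 2.08 (SE 0.46, DESeq2 adjusted p = 0.000145) in the authors' deposited table. Npdc1, 12857 bases away, had 17, 27, 121 and 173 reads and Dpp7, 65962 bases away, had 359, 227, 580 and 499, with log2 fold changes of 2.82 (SE 0.62, DESeq2 adjusted p = 0.000133) and 0.98 (SE 0.35, DESeq2 adjusted p = 0.0438) in that deposited table. Near B4galt1, 7 of 8 neighbours were tested. Dnaja1 alone was called, as lower, beside 3.61% called lower among all genes tested. Its log2 fold change was -0.94 (SE 0.34, DESeq2 adjusted p = 0.0478) in the authors' deposited table. Dnaja1 has no solved reads and could not be fitted by limma, which called 0 of the 6 neighbours fitted. Aptx and Mir5123 had an unadjusted DESeq2 p under 0.05 and were not called. Around Selplg, Fut4 and St3gal4, 4, 3 and 5 neighbours were tested. Of these 12, 0 were called by the deposited DESeq2 test or by limma. The deposited test called 13.4% of all genes tested. Amotl1 and Iscu, 2 of the 12, had an unadjusted DESeq2 p under 0.05. The only neighbour of St3gal1 was not tested. Cd44 and Fut7 share chromosome 2 at a distance of 77.4 Mb.

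**Figure D5:**
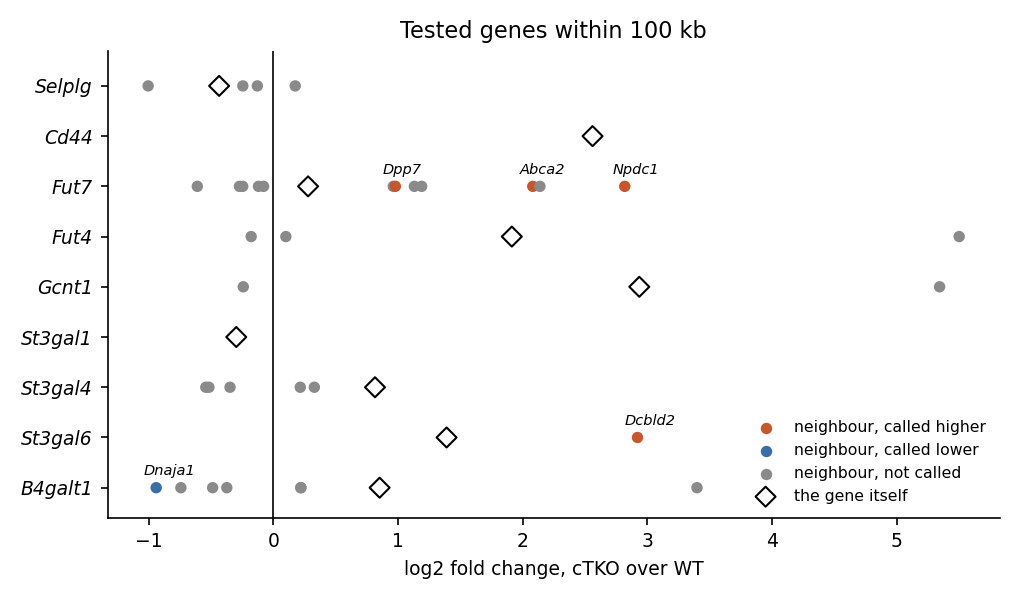
Deposited log2 fold changes, cTKO over WT, of each of the 9 genes (diamonds) and of tested genes within 100000 bases (points; orange called higher, blue called lower, grey not called). Fut7 at 0.28 lies among 3 called neighbours, and the single neighbour of St3gal6, Dcbld2, lies at 2.92.

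Promoter windows of 250 bases before and 50 bases after the start were found in RefSeq for 7 of the 9 genes, with none for Selplg and St3gal1. CpG content varied among the genes that rose. The observed over expected CpG ratio was 0.246 at Cd44. It was 0.164 and 0.641 at the Gcnt1 starts shown above and 0.150 at the Gcnt1 start not shown. At the outer and inner St3gal6 starts it was 0.274 and 0.641. The ratio was 0.978 at St3gal4, 0.820 at B4galt1 and 0.523 at Fut4. The first Fut7 start had 0.367 and the other Fut7 start 0.0433, beside a median of 0.384 over 32851 promoters. The Cd44 start lay below that median, while Gcnt1 and St3gal6 had starts on either side of it. Short motifs were searched on both strands: TCACACC (T-box), CCACACCC (KLF), TTCNNNGAA (STAT), TGTGGT (RUNX) and CCGGAA (ETS), of which the first pair share the letters CACACC. The RUNX letters stood at position -43 of Fut7, -24 of B4galt1 and -241 of the outer St3gal6 start, where 0 is the first transcribed base. B4galt1 held TTCCGCGAA at -99. In all promoters the RUNX letters were present in 16.8%, STAT in 8.30%, ETS in 14.9%, T-box in 3.98% and KLF in 3.56%. No other match was present in these windows, and the windows of Cd44 and Gcnt1 held none of the 5 motifs.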

How the data were processed

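The authors used STAR and DESeq2 with builds mm10 and GRCm38.p6, per the submitters' processing notes, with versions, annotation and counting tool not given in the sources used here. Per the file headers, each gene has a mean normalized count, a signal the authors made from reads divided by size factors. The authors deposited with it a log2 fold change, an SE, a test score, a p-value and an adjusted p-value. Adjusted p-values exist for 12972 genes, with means of at least 3.45.

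Whole reads were worked back: a mean is a sum of 4 whole numbers times the worth of 1 read in each library. From a mean of 20, a negative binomial fit of both genotypes, at the dispersion matching the deposited SE, had to return the deposited fold change. From 20 to 9000 the largest gap was 8.129e-07 (log2), and 99.67% of genes with means under 9000 had 1 solution. The search was tested on simulated data.

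Alternatives were limma 3.58.1 (R 4.3.3) on log2 of the normalized count plus 1 or 0.5 over 12686 genes, other filters, re-centring, and leaving out each library. Exon lengths come from GENCODE and gene positions from RefSeq, matched by Entrez identifier for 24383 genes, both on GRCm38. Named genes are the 9, each called gene of the pathway lists, and Spn, Tpst1, Tpst2 and C1galt1, with 1 further gene not reported here; other genes were named after their values were seen. The genes and lists were chosen with earlier results of these data known. Nothing in the labels says that animals were paired. The p-values rest on 2 animals per genotype, 1 female and 1 male. DESeq2 and limma moderate the spread of each gene by that of other genes, so a p-value does not measure its 2 animals alone.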

Additional observations from a re-analysis of the deposited data

How the results depend on the processing

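Of the 9 genes, Cd44, Gcnt1 and St3gal6 were called by the deposited DESeq2 test, with all 18153 genes in the adjustment, after re-centring and with limma at either pseudocount. With a mean of at least 50 Cd44 and St3gal6 remained, 2 of the 7 left. Leaving out each library in limma gave 0 to 1 of 8 called (0 without either cTKO library, where 3 and 5 had an unadjusted p under 0.05), and 177 to 713 genes in all, against 1736 by DESeq2 and 1249 by limma with all libraries. An arm of 1 library was assumed to vary like the other arm; the smaller number of samples is part of these fits. Direction turned for genes that were not called: leaving out each library gave log2 values of -0.29 to 2.30 for Fut4 and -0.060 to 0.95 for Spn (lowest without the larger cTKO library) and -0.26 to 0.18 for C1galt1 (highest without the smaller WT library), and re-centring, by a median of -0.10, gave 0.047 for C1galt1. Re-centring gave 1484 higher and 342 lower calls, against 1268 and 468. St6gal1 ended its call under re-centring, and Fut8, St6gal1, St8sia4, Slc35a3 and Hmmr under limma, joined by Hyal2 at a pseudocount of 0.5; B3gnt7 and Hmmr ended theirs with all genes in the adjustment. Gcnt1, Fut4, Fut7, B3gnt7, B3gnt8 and Gcnt2 rest on fewer than 150 reads per library. No paired analysis was made, since the labels state no pairing of the animals of the 2 genotypes and the deposited table names no sample. A fit with sex as a block was not made either, since the libraries were not assigned to animals.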
